A study of Mus musculus with 10 samples.

Results

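Microglia sorted from the brains of 9-month-old mice with and without surface CD11c were compared across all genes. The comparison was defined by the sample labels and takes 4 of the 10 RNA-seq libraries of the study, 2 CD11c+ and 2 CD11c-. All 4 came from wild-type C57BL/6 mice with no stated treatment, and their complementary DNA was made with the SMART-Seq v4 kit, which amplifies full-length transcripts from small amounts of RNA. The other 6 libraries are 3 CD11c+ and 3 CD11c- libraries of wild-type C57BL/6 pups at postnatal day 5 (P5), and they enter only the last comparison. The labels name microglia as the cell type of every library. The sources used here state neither the sort gates nor whether replicates are separate mice, so p-values measure the spread among these samples only, and that spread may be technical.

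Itgax encodes CD11c, an integrin alpha chain. In the healthy adult brain few microglia carry it, and it marks microglia of developing white matter, of aged and diseased brain, and also dendritic cells and some macrophages at the borders of the brain. Microglia depend on the receptor Csf1r and express a homeostatic programme that includes the purine receptor P2ry12, the membrane protein Tmem119 and the transcription factor Sall1. Granulocytes, the short-lived leukocytes that store enzymes in granules, make their primary granule proteins as marrow precursors, their secondary and tertiary granule proteins later, and a set of receptors and calcium-binding proteins when mature. A granule transcript therefore tells of the stage of the cell it came from.

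Total counts were 22122354 to 25483573 per library, and 12762 to 13209 genes reached 1 CPM (counts scaled to a common library total). Replicates correlated across genes at r = 0.975 for CD11c+ and 0.936 for CD11c- on the log2 CPM scale, against 0.82 to 0.856 between the subsets. The defining markers of microglia were present in every library, and their shares are given with the lists. The 98 genes of the 5 granulocyte lists took 1.03% and 0.946% of CD11c+ counts, against 20.8% and 27% of CD11c- counts. In such sums over many cells, fewer cells of a type and less RNA per cell cannot be told apart.

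Itgax (ENSMUSG00000030789, chromosome 7, 128129547 to 128150657 in the deposited tables) had 28.0 and 20.7 CPM with CD11c and 5.80 and 3.21 CPM without it. Both CD11c+ libraries lay above both CD11c- libraries. The log2 fold change of CD11c+ over CD11c- was 2.08 ± 0.33 (SE; edgeR quasi-likelihood adjusted p = 0.00397) after scaling by trimmed means of M-values (TMM), the scaling used unless another is named. CPM values are per total count, and TMM factors were 1.13 and 1.15 for CD11c+ against 0.933 and 0.825 for CD11c-, so fold changes lie below the ratios of the CPM. Itgax RNA was thus measured in the CD11c- libraries as well.

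Because the CD11c- libraries held so much granulocyte RNA, a second scale is used as well, in which the libraries were set equal by the median of the 40 homeostatic microglia genes. This scale asks whether a gene was higher per unit of homeostatic microglial RNA. It moved the median fold change of all genes from 0.02 to -1.19, so a gene with a TMM fold change of 1.22 stands at 0 on it. Each of the 2869 genes lower under TMM was lower on this scale too, and their values on it are not all printed. On this scale Itgax stood at 0.86 and did not pass (edgeR adjusted p = 0.0629). Scaling to 14 genes shared by macrophages, such as C1qb and Mertk, gave nearly the same median for all genes, -1.25.

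Of 15740 genes tested, 2333 were higher in CD11c+ (14.8%) and 2869 were lower (18.2%) at an edgeR adjusted p under 0.05. By at least 2-fold, 1394 were higher and 2326 lower. On the homeostatic scale 126 were higher (0.801%) and 8784 lower (55.8%), and these 126 were all among the 2333. In a fit of all 10 libraries, which takes its spread from the P5 samples as well, 280 were higher and 878 lower. Of the 13 genes followed across the study Igf1 and Apoe still passed there; Itgax, at 2.22, did not (edgeR adjusted p = 0.118), nor did Tmem119, P2ry12, Cx3cr1, Sall1, Trem2, Clec7a, Tnf and Il1b. Both CD11c+ libraries lay above both CD11c- libraries, after TMM scaling, for 36.1% of all genes and below them for 33.8%, so groups without overlap were common. Of the 2869 lower genes, 85 belonged to a granulocyte list and 2568 to none of the lists used here.

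**Figure D1:**
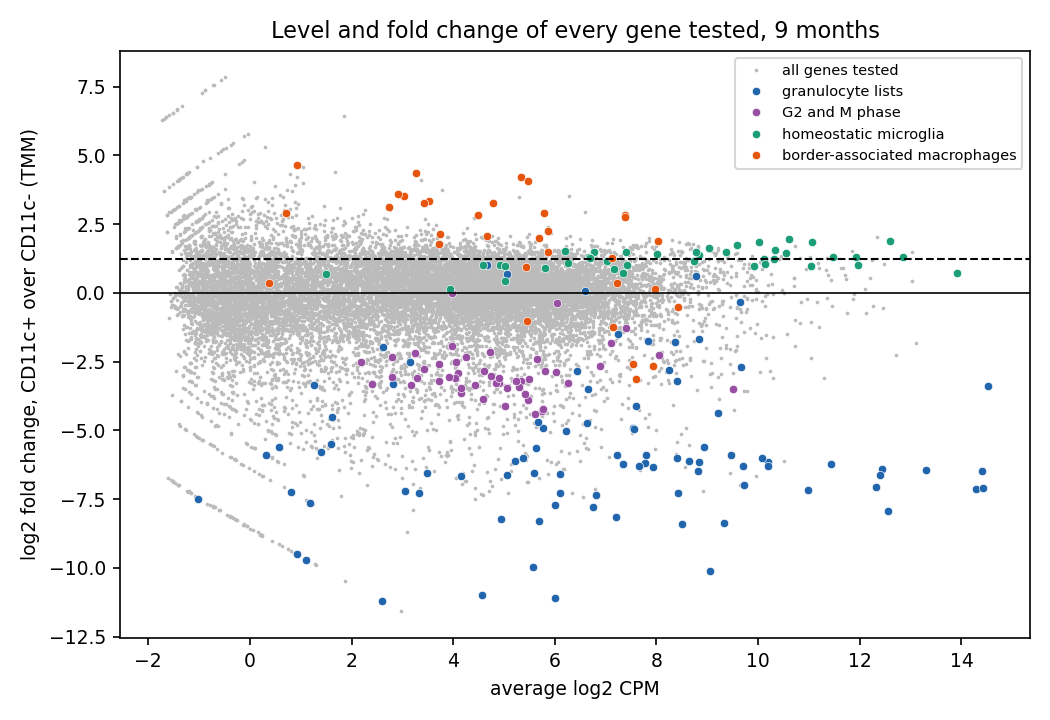
Log2 fold change (CD11c+ over CD11c-, TMM) against average log2 CPM for the 15740 genes tested, with 4 kinds of list marked. The dashed line at 1.22 is the fold change that equals 0 when libraries are scaled to the homeostatic list; the homeostatic genes lie around it, the granulocyte genes lie far below, and part of the border-associated macrophage genes lie above.

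Primary granule genes, the products of neutrophil precursors, were lower in CD11c+. Of 18 tested, 17 were lower and 1 was higher, and the median log2 fold change was -6.13, beside 0.02 over all genes (homeostatic scale -7.35). Neutrophil elastase, Elane (ENSMUSG00000020125, chromosome 10, 79886312 to 79888216), had 3.81 and 0.983 CPM in CD11c+ against 689 and 589 CPM in CD11c-. Myeloperoxidase, Mpo, had 7.18 and 1.45 CPM against 1271 and 983 CPM. For both genes the groups were far apart, and CD11c+ replicate 1 held several times more of each than replicate 2. Elane was lower by a log2 fold change of -8.41 ± 0.57 (edgeR adjusted p = 0.000108) and Mpo of -8.38 ± 0.71 (edgeR adjusted p = 0.000286). Proteinase 3, Prtn3, had 1.92 and 1.15 CPM against 223 and 173 CPM. Ms4a3, a membrane protein of granulocyte and monocyte progenitors, had 1.26 and 0.727 CPM against 119 and 121 CPM. The lectin Fcnb, the glutathione transferase Mgst1 and the protease inhibitor Serpinb1a were lower by -5.88, -5.99 and -6.15. Calr, an endoplasmic reticulum chaperone made by nearly every cell, was the 1 member that was higher, at 0.62 ± 0.16 (edgeR adjusted p = 0.0255), and it was lower on the homeostatic scale at -0.59. Without CD11c+ replicate 2 or CD11c- replicate 2 Calr did not pass under TMM (edgeR adjusted p = 0.106 and 0.0555).

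An unnamed transcript, Gm11505, was among the 6 largest decreases of genes whose mean log2 CPM was 3 or more, at -8.70 ± 0.64 (edgeR adjusted p = 0.000152), with 0.0392 and 0.0427 CPM against 21 and 9.54 CPM. Its counts in CD11c+ were too few for the size of this fitted fold change to serve. Gm11505 lies on the minus strand of chromosome 11 from 87795784 to 87801144, within the span of Mpo on the plus strand (87793581 to 87804413). Strand use in the counting was not given in the sources used here, so its reads and those of Mpo cannot be told apart.

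All 20 secondary and tertiary granule genes were lower, on both scales, with medians of -6.32 and -7.54. Their share of counts was 0.675% and 0.614% in CD11c+ against 13.7% and 16.4% in CD11c-. Lactoferrin, Ltf, had 317 and 206 CPM in CD11c+ and 18080 and 17050 CPM in CD11c-. Neutrophil collagenase, Mmp8 (ENSMUSG00000005800, chromosome 9, 7558456 to 7568485), had 36.7 and 26.9 CPM against 3439 and 3566 CPM. Neither gene overlapped between the groups. Mmp8 was lower by -7.16 ± 0.25 and gelatinase B, Mmp9, by -6.13 ± 0.22 (both edgeR adjusted p = 2.63e-05). Lysozyme, Lyz2, is made by macrophages too. It had 4628 and 4698 CPM in CD11c+ against 32400 and 42670 CPM, and its fold change, -3.40 ± 0.22 (edgeR adjusted p = 9.23e-05), was smaller than those of Ltf (-6.45) and Mmp8. The peptidoglycan-binding protein Pglyrp1, the neutrophil surface antigen Cd177 and the chitinase-like Chil3 stood at -6.30, -6.29 and -6.39, a narrow range.

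Promoters of 2 primary granule genes, 2 later granule genes and 2 genes that were higher in CD11c+ are shown to set side by side genes that moved together. Each window runs from 250 bases before to 50 bases after the RefSeq start, 5′ to 3′ along the gene, on GRCm38.p6: Elane at chr10:79886062-79886361 (plus strand), Mpo at chr11:87793534-87793833 (plus), Ltf at chr9:111019042-111019341 (plus), Mmp8 at chr9:7558179-7558478 (plus), Cd209f at chr8:4105715-4106014 (minus) and Cd163 at chr6:124304401-124304700 (plus). Capitals mark matches on either strand to TTGCNNAA, a core that C/EBP factors bind, and to GGAAGT, a core of the PU.1 site; the 2 motifs do not share letters in these windows.
Elane: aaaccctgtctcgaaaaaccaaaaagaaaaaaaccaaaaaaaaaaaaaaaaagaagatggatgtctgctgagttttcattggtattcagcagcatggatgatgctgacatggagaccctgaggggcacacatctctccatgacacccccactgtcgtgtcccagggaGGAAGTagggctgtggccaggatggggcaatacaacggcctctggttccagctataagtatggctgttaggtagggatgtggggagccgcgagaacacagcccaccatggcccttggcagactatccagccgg
Mpo: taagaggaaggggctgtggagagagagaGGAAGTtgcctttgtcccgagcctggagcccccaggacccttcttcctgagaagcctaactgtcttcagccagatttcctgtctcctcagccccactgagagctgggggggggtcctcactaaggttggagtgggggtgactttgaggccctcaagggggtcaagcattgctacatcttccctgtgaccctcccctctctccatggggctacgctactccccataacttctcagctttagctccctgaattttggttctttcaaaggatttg
Ltf: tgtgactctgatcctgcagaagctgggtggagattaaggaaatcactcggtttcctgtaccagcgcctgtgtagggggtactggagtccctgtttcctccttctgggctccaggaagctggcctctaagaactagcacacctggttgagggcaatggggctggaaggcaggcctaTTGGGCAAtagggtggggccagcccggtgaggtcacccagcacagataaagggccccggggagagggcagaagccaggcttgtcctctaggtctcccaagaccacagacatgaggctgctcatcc
Mmp8: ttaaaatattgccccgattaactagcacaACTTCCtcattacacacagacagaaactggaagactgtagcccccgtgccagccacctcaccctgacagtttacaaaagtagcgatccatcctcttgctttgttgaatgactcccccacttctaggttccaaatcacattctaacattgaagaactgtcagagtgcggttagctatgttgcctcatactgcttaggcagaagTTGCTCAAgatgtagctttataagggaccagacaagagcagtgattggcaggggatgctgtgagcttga
Cd209f: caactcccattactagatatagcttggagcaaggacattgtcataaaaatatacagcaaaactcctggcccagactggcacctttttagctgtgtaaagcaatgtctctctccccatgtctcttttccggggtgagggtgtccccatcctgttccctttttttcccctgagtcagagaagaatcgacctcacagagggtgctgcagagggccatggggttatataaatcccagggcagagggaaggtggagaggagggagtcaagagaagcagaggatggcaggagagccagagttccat
Cd163: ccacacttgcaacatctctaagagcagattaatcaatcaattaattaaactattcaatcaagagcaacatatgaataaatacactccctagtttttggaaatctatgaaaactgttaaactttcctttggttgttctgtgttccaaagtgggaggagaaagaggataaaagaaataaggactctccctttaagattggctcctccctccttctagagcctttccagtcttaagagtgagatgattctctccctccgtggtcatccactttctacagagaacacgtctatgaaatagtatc

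Elane, Mpo and Mmp8 each held 1 GGAAGT match, Ltf and Mmp8 each held 1 TTGCNNAA match, and Cd209f and Cd163 held neither in these windows. Over the 9580 tested genes with such a window, 8.57% held TTGCNNAA and 30.4% held GGAAGT. Of the 14 later granule genes with a window 6 held TTGCNNAA, as did 4 of 13 primary granule genes, 5 of 23 mature neutrophil genes, 4 of 25 homeostatic genes, 4 of 25 border-associated macrophage genes and 6 of the 91 genes that were higher on both scales. GGAAGT was held by 7, 5, 15, 12, 10 and 28 of the same sets. These are matches of letters and were not tested against binding.

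Mature neutrophil genes followed the same direction. Of 29 tested, 28 were lower and none higher, with a median of -6.00 (homeostatic scale -7.22), and the list took 0.252% and 0.21% of counts in CD11c+ against 7.35% and 11.1% in CD11c-. The calcium-binding protein gene S100a8 had 419 and 301 CPM in CD11c+ and 26590 and 48020 CPM in CD11c-, so the CD11c- replicates differed while both stayed far above CD11c+. Il1r2, the decoy receptor of interleukin 1, had 25.5 and 28.2 CPM against 1164 and 1260 CPM and was lower by -5.88 ± 0.19 (edgeR adjusted p = 2.63e-05). The receptors Trem3 and Clec4e stood at -6.17 and -4.90, the MYC antagonist Mxd1 at -4.38, and the cystatin Stfa2l1 at -8.24; Stfa genes are near-identical copies whose counts may be shared or lost. The exception was Csf3r, the receptor for granulocyte colony-stimulating factor, which microglia also express. It had 853 and 765 CPM against 864 and 704 CPM, values that overlap before scaling, and a fold change of -0.33 ± 0.14 (edgeR adjusted p = 0.131; -1.54 and lower on the homeostatic scale).

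Eosinophil and basophil genes were lower in CD11c+ too, several of them from a few counts in CD11c+. Of 16 eosinophil genes tested 14 were lower and 1 higher (median -6.61, homeostatic scale -7.82), and of 13 basophil and mast cell genes 12 were lower and none higher (median -5.77, homeostatic scale -6.96). Prg2, the eosinophil major basic protein, had 2.0 and 0.128 CPM against 960 and 905 CPM. Eosinophil peroxidase, Epx, had 0.196 and 0 CPM against 105 and 63.6 CPM. The basophil proteases Mcpt8 and Prss34 had 1.02 and 0.342 CPM against 105 and 119 CPM, and 2.0 and 0.299 CPM against 265 and 251 CPM. Counts in CD11c+ were too few for a fitted fold change to serve in Prg3, with 1 count against 1927, a ratio of 2040 (exact 95% interval 365 to 80500), and in the ribonuclease Ear6, with 3 against 5107, a ratio of 1800 (615 to 8730). These intervals cover counting error only. Ear genes are near-identical, so their reads may be shared or lost. Several list members were at 0 counts in both CD11c+ libraries: the steroidogenic enzyme Cyp11a1 (173 counts in CD11c-, at least 60.9-fold higher there taking 3 counts in the group as the floor), the ribonuclease Ear10 (36 counts, at least 12.7-fold), and, from the mature neutrophil list, the stefins BC100530 (483 counts, at least 170-fold) and Stfa2 (152 counts, at least 53.5-fold). The member that was higher was the lectin Siglecf, with 39.1 and 37.9 CPM against 16.6 and 12.7 CPM (1.03 ± 0.20, edgeR adjusted p = 0.00888), and it stood at -0.19 and did not pass on the homeostatic scale. Ear10 did not pass without CD11c+ replicate 1 or 2 (edgeR adjusted p = 0.165 and 0.133). These low-count genes and the exceptions were named after their values were seen.

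Granulocyte RNA in the CD11c+ libraries was not at 0, and it differed between the replicates. Over list members with at least 10 counts in all 4 libraries, CD11c+ replicate 1 exceeded replicate 2 by a median factor of 1.59 for 14 primary granule genes, 1.59 for 20 later granule genes and 1.25 for 24 mature neutrophil genes. The same factor was 1.05 for the 40 homeostatic genes. Between the CD11c- replicates the factors for these lists were 1.13, 0.987, 0.982 and 1.17. Whether this RNA came with cells or free in solution was not tested.

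**Figure D2:**
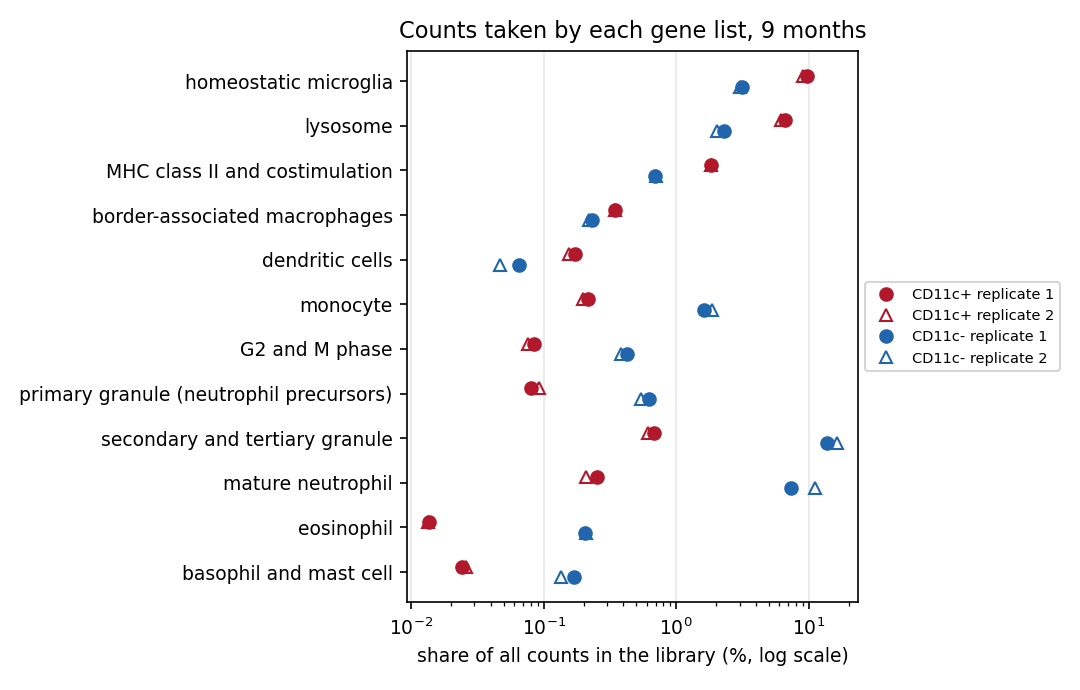
Share of all counts in the library (%, log scale) taken by 12 gene lists in each of the 4 libraries. Red symbols are CD11c+ and blue symbols CD11c-; granulocyte, monocyte and G2 and M phase lists lie higher in both CD11c- libraries, and microglial, border-associated macrophage and dendritic cell lists higher in both CD11c+ libraries. Shares are of all counts. Per unit of homeostatic RNA the lysosome and MHC class II lists had medians just below 0. On that measure the summed counts of the border-associated macrophage list were lower in CD11c+, although 17 of its 33 members were higher there and 8 lower.

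Monocyte genes split. Of 30 tested, 20 were lower and 5 higher, with a median of -1.92 (homeostatic scale -3.14). Ly6c2, the antigen of classical monocytes, had 26.9 and 17.2 CPM in CD11c+ against 1559 and 1875 CPM in CD11c-, and was lower by -6.67 ± 0.32 (edgeR adjusted p = 3.83e-05). The calcium-binding protein gene S100a6, which neutrophils express as well, stood at -5.58. Haptoglobin, Hp, at -5.99, is also in the granule list. Cd300e, a receptor of non-classical monocytes, went the other way, with 28.5 and 29.2 CPM against 1.2 and 2.08 CPM. It was higher by 3.75 ± 0.37 (edgeR adjusted p = 0.000526) and by 2.53 on the homeostatic scale (edgeR adjusted p = 0.00162).

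Proliferation genes were lower in CD11c+. Of 48 genes of the G2 and M phases 46 were lower and none higher (median -3.09, homeostatic scale -4.31), and of 44 S phase genes 32 were lower and none higher (median -1.62, homeostatic scale -2.84). Topoisomerase Top2a had 16.8 and 16.1 CPM in CD11c+ and 132 and 112 CPM in CD11c-. The survivin gene Birc5 had 5.26 and 6.67 CPM against 101 and 80.1 CPM. Both were lower with no overlap, Top2a by -3.26 ± 0.17 (edgeR adjusted p = 4.61e-05) and Birc5 by -4.29 ± 0.21 (edgeR adjusted p = 3.93e-05). The ribonucleotide reductase subunit Rrm2 stood at -4.38 and the chromatin protein Hmgb2 at -3.50, whereas the replication clamp Pcna, at -0.35, did not pass under TMM. Neutrophil precursors divide, and their granule genes were lower in the same libraries; the part of those cells in this result was not tested.

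Glycolysis genes were mostly lower, 14 of 23, with 3 higher (median -1.24, homeostatic scale -2.46). The glucose transporter Slc2a3 had 24.6 and 16.2 CPM against 389 and 344 CPM (-4.54 ± 0.25, edgeR adjusted p = 5.25e-05). The enzymes Gpi1, Pkm, Gapdh and Ldha stood at -2.94, -2.37, -1.62 and -1.61. The 13 mitochondrially encoded messengers had a median of -0.28, and none passed in either direction under TMM. On the homeostatic scale 7 of the 13 were lower, a share near the 55.8% of all genes lower there. The groups overlapped for mt-Co1, a subunit of the last respiratory complex, with 1249 and 965 CPM against 769 and 1266 CPM. Without CD11c- replicate 1 mt-Co1 was lower (-0.66, edgeR adjusted p = 0.0431).

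The 10 largest decreases outside the granulocyte and other-cell lists, among genes whose mean log2 CPM was 5 or more, were of similar size to those of the granule genes. The receptor Mrgpra2b, of a family of near-identical genes, had 1.22 and 1.24 CPM in CD11c+ and 158 and 168 CPM in CD11c-. The secretory leukocyte protease inhibitor Slpi had 19.8 and 8.21 CPM against 1235 and 1518 CPM. Ceacam10, a cell adhesion family member, the stefin-like Gm5483, I830127L07Rik, the filamin-binding Rflnb, coagulation factor F5, the keratin Krt83, the sphingomyelin synthase Sgms2 and the glutathione transferase Mgst2 fell between -7.29 and -6.58.

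Homeostatic microglia genes were higher in CD11c+ under TMM. Of 40 tested, 37 were higher and none lower, with a median of 1.26 beside 0.02 over all genes, and their share of counts was 9.69% and 8.96% in CD11c+ against 3.13% and 3.05% in CD11c-. On the homeostatic scale the list's median is held near 0 by construction (0.05). Csf1r had 12210 and 9917 CPM against 2517 and 2117 CPM, and the purine receptor P2ry12 had 4276 and 4922 CPM against 1433 and 1451 CPM. The fractalkine receptor Cx3cr1 had 7430 and 5114 CPM against 2081 and 1802 CPM. In each the CD11c+ libraries were higher with no overlap. Per kilobase, on the TMM-scaled CPM scale, cystatin C (Cst3) was the most abundant protein-coding transcript of CD11c+ at 15230, followed by C1qb at 6163 and the cathepsin Ctss at 5669, and Ctsd stood at 5249. In CD11c- the highest were S100a9 at 75650, S100a8 at 62540, Ngp at 34910 and Lyz2 at 34180, and Cst3 stood at 9123. These genes were named by their rank.

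Within the homeostatic list the folds were not equal. Fc receptor-like Fcrls had 2937 and 2658 CPM against 642 and 481 CPM, and was higher by 1.95 ± 0.16 (edgeR adjusted p = 0.000226). Tmem119, with 4202 and 3361 CPM against 998 and 635 CPM, stood at 1.85 ± 0.21, the transporter Slco2b1 at 1.86, Csf1r at 1.89 and the Golgi protein Golm1 at 1.73. These 5 were also higher on the homeostatic scale, by 0.73, 0.63, 0.64, 0.67 and 0.52. They belong to the list whose median sets that scale, so they were higher only relative to the other members. On that scale 3 members were lower. Gpr84 stood at -0.50, Smad3 at -0.77 and Rapgef5 at -1.09 there (edgeR adjusted p = 0.0289, 0.0283 and 0.023). The TMM fold changes of P2ry12, Cx3cr1 and Sall1, 1.29, 1.32 and 1.30, became 0.08, 0.10 and 0.08 there, where none passed (edgeR adjusted p = 0.686, 0.678 and 0.709). The 3 members that did not pass under TMM were Rapgef5 at 0.13, Smad3 at 0.44 and Khdrbs3 at 0.68. These and Gpr84 were named after their values were seen.

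**Figure D3:**
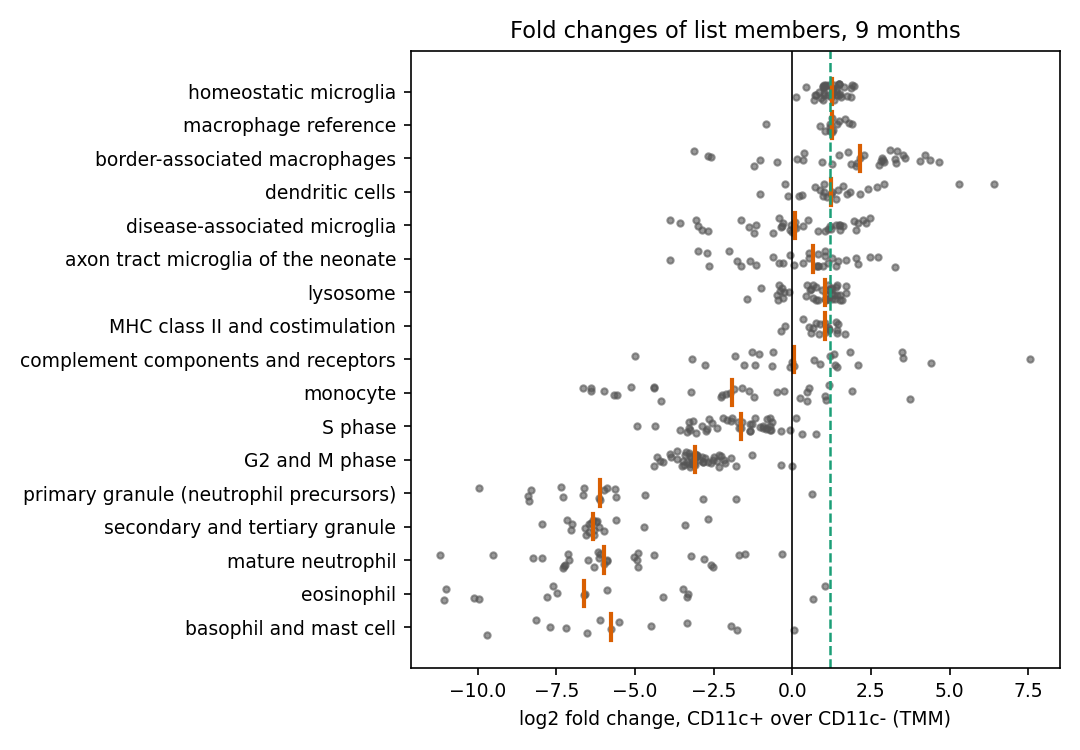
Log2 fold changes (CD11c+ over CD11c-, TMM) of the tested members of 17 lists, 1 point per gene, with the list median as an orange bar. The solid line is 0 and the dashed line, at 1.22, is where the homeostatic scale gives 0; to the left of the dashed line a gene was lower per unit of homeostatic RNA. Medians range from 2.16 for border-associated macrophages to -6.61 for eosinophil genes.

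The 126 genes higher on both scales held 17 markers of border-associated macrophages, which live in meninges, around vessels and in choroid plexus. Of the 33 such markers tested 24 were higher and 6 lower under TMM, with a median of 2.16. On the homeostatic scale 17 were higher and 8 lower, against 0.801% of all genes higher, and the median was 0.94. The C-type lectin Cd209f (ENSMUSG00000051906, chromosome 8, 4102787 to 4105835) had 89.0 and 85.3 CPM in CD11c+ and 4.72 and 2.53 CPM in CD11c-. The haemoglobin scavenger receptor Cd163 had 120 and 69.3 CPM against 4.56 and 4.25 CPM, and the hyaluronan receptor Lyve1 had 63.3 and 49.7 CPM against 4.64 and 4.29 CPM. They were higher on the homeostatic scale by 3.01, 2.83 and 2.07 (edgeR adjusted p = 0.000234, 0.000396 and 0.00046).

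Further members of that list had the same direction on both scales. The mannose receptor Mrc1 had 361 and 301 CPM against 50 and 26.3 CPM, the endocytic adaptor Dab2 had 342 and 321 CPM against 45.3 and 26.9 CPM, and the carbonyl reductase Cbr2 had 112 and 109 CPM against 12.1 and 10.7 CPM. Their TMM fold changes were 2.77, 2.84 and 2.90, and those on the homeostatic scale 1.55, 1.62 and 1.69. The lectins Cd209b and Cd209g stood at 4.37 and 3.32, the ficolin Fcna at 3.51, the collectin Colec12 at 3.28, the ferroxidase ceruloplasmin, Cp, at 2.83 and the chemokine Pf4 at 2.27, all higher on both scales. Cd209 genes are close paralogues in 1 cluster, and reads may have been shared among them. The 6 lower members were Clec12a at -3.14, Ccr1 at -2.67, Wfdc17 at -2.60, Ms4a6c at -1.23, Aoah at -1.02 and F13a1 at -0.50, named after their values were seen where the rule did not name them; Wfdc17 is also in the mature neutrophil list and Ms4a6c and F13a1 in the monocyte list. F13a1 did not pass when any 1 of the 4 libraries was left out (edgeR adjusted p = 0.0582 to 0.344). The whole list took 0.343% and 0.348% of counts in CD11c+ against 0.23% and 0.219% in CD11c-. The homeostatic list took 9.69% and 8.96% against 3.13% and 3.05%. Per unit of homeostatic RNA the summed counts of the border-associated list were thus lower in CD11c+, though its median fold change was above 0. A sum is set by abundant members, and 3 of the lower members were abundant in CD11c-. Ccr1 had 383 and 360 CPM there, F13a1 367 and 340 CPM and Clec12a 302 and 308 CPM. By member, 17 were higher and 8 lower on that scale, so the sum does not stand for most members. Of its members only Cd209d was at 0 in a library, CD11c- replicate 1. Its part in the other genes higher on both scales was not tested.

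**Figure D4:**
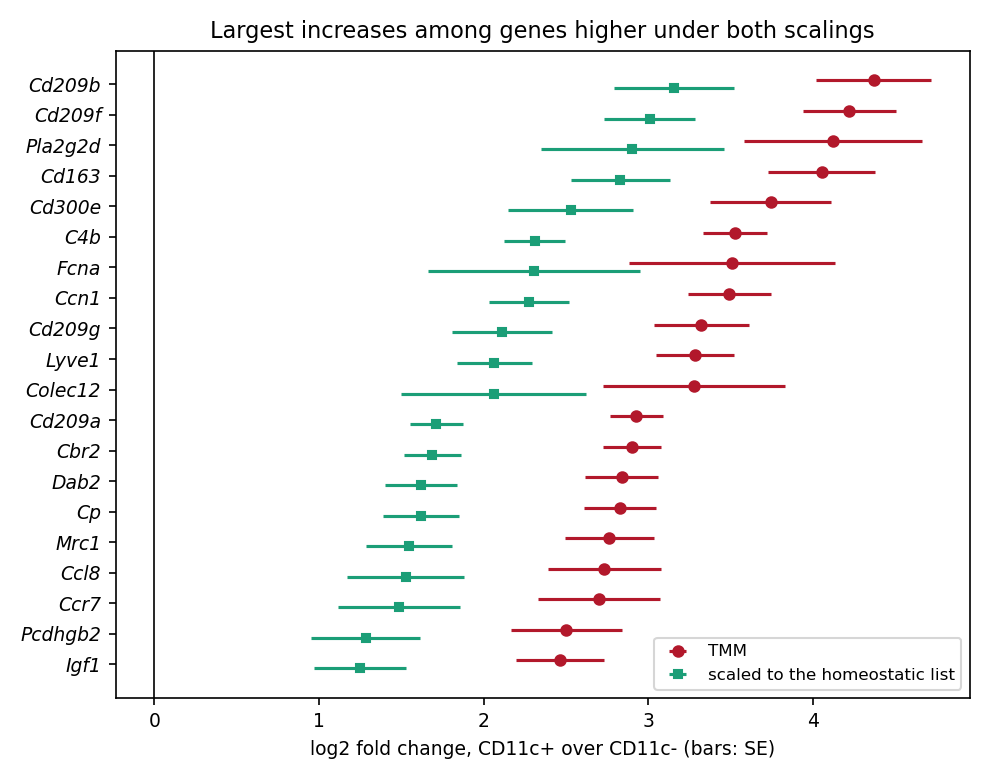
The 20 largest increases among genes that were higher in CD11c+ on both scales, whose mean log2 CPM was 3 or more and whose groups did not overlap. Points are log2 fold changes and bars their SE, under TMM (red) and scaled to the homeostatic list (green); Cd209b leads at 4.37 and Igf1 closes at 2.46, and the green points stand about 1.22 lower.

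Dendritic cell genes gave 6 of these 126. Of 24 tested 14 were higher and 1 lower under TMM, with a median of 1.24, and the median on the homeostatic scale was 0.03. Cd209a had 193 and 193 CPM in CD11c+ and 21.2 and 18.0 CPM in CD11c-, the galactose-type lectin Mgl2 had 114 and 108 CPM against 15.6 and 16.6 CPM, and its relative Clec10a had 42.5 and 37.3 CPM against 6.50 and 7.32 CPM. All 3 were higher on the homeostatic scale, by 1.71, 1.19 and 0.93. The migration receptor Ccr7 had 23.8 and 18.9 CPM against 3.44 and 1.67 CPM. The chemokines Ccl22 and Ccl17, which mature dendritic cells secrete, had 382 counts against 3 and 119 against 2, ratios of 121 (exact 95% interval 40.9 to 587) and 56.3 (15.2 to 470). Both ratios pool the replicates per total count, without TMM, and the intervals cover counting error only. The transcription factor Irf8, which microglia also need, was higher by 1.12 and stood at -0.10 on the homeostatic scale. The defining genes Flt3 (25.6 and 18.5 CPM against 8.53 and 8.68), Zbtb46 (2.98 and 5.68 against 0.331 and 1.58), Clec9a (0.746 and 1.84 against 0.29 and 0.678) and Xcr1 (1.49 and 2.39 against 0.953 and 0.859) were above 0 in every library, and none of the 4 was higher on the homeostatic scale; they were chosen after their values were seen. Flt3 did not pass without CD11c+ replicate 1 or CD11c- replicate 1 (edgeR adjusted p = 0.231 and 0.0748), Ccl17 without CD11c+ replicate 2 (0.0625), and Zbtb46 passed without CD11c+ replicate 1 or CD11c- replicate 2 (0.0402 and 0.0143). The list took 0.172% and 0.155% of counts in CD11c+ and 0.0655% and 0.0468% in CD11c-, and its part in the sort difference was not tested.

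The number of genes higher on both scales depended on single libraries. It was 49 without CD11c+ replicate 1 and 73 without CD11c+ replicate 2, and 452 without CD11c- replicate 2, against 138 without CD11c- replicate 1. Of the 126, 44, 60, 84 and 80 were called again in these fits, in the same order. Scaled to the macrophage reference genes, 107 of the 126 were called.

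Other genes outside those lists were higher on both scales. The secreted phospholipase Pla2g2d had 21.7 and 21.8 CPM in CD11c+ against 0.456 and 1.45 CPM, higher by 4.12 ± 0.54 (edgeR adjusted p = 0.00179). The matricellular protein Ccn1 had 88.1 and 74.9 CPM against 4.93 and 6.15 CPM, higher by 3.49 ± 0.25 (edgeR adjusted p = 0.000133). The chemokine Ccl8 had 33.9 and 49.8 CPM against 3.77 and 5.79 CPM and was higher by 2.73. The protocadherin Pcdhgb2, 1 of a cluster of genes with shared exons, stood at 2.5. These 4 stood, per unit of homeostatic RNA, at 2.90, 2.28, 1.53 and 1.28, all passing.

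Complement genes parted by component. Of 25 tested 11 were higher and 6 lower, beside 14.8% and 18.2% of all genes, with a median of 0.05 (homeostatic scale -1.15). C4b, of the classical pathway (ENSMUSG00000073418, chromosome 17, 34728380 to 34743882), had 176 and 147 CPM in CD11c+ and 11.9 and 9.76 CPM in CD11c-. It was higher by 3.53 ± 0.19 (edgeR adjusted p = 5.25e-05) and by 2.31 on the homeostatic scale; its near-identical neighbour C4a may share reads. C1qb, the initiating subunit, was higher by 1.2 and stood at -0.01 on the homeostatic scale, and the anaphylatoxin receptor C3ar1 by 1.37 and 0.15. C3, the central component, had 17.6 and 17.6 CPM in CD11c+ and 473 and 392 CPM in CD11c-. C3 was lower by -4.99 ± 0.16 (edgeR adjusted p = 2.63e-05), properdin, Cfp, by -2.78 and the decay-accelerating factor Cd55 by -3.20, on both scales. Neutrophils and monocytes make C3 and Cfp, and their markers were higher in the same libraries; their part was not tested.

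Disease-associated microglia genes, the programme of microglia around plaques and lesions that CD11c marks, did not move together. Of 39 tested 14 were higher and 11 lower, and the median was 0.09, close to the 0.02 of all genes (homeostatic scale -1.12). Among the 13 genes followed across the study, Igf1 had 22.9 and 25.4 CPM in CD11c+ and 3.23 and 3.48 CPM in CD11c-, and Apoe had 10040 and 8799 CPM against 1930 and 1615 CPM. Both were higher on both scales, the growth factor Igf1 by 2.46 and 1.25 and the lipid carrier Apoe by 2.04 and 0.82. The lipid receptor Trem2 had 1316 and 1159 CPM against 480 and 357 CPM. It was higher by 1.2 ± 0.16 (edgeR adjusted p = 0.00192) and stood at -0.02 on the homeostatic scale. Osteopontin, Spp1, had 33.7 and 35.6 CPM against 30.7 and 26.2 CPM, and lipoprotein lipase, Lpl, had 42.0 and 48.5 CPM against 28.8 and 26.2 CPM. After TMM scaling the fold changes were -0.09 ± 0.18 and 0.34 ± 0.18 (edgeR adjusted p = 0.745 and 0.199), and both were lower on the homeostatic scale, at -1.30 and -0.87. The beta-glucan receptor Clec7a, with 92.1 and 101 CPM against 147 and 177 CPM, was lower on both (-1.14 and -2.35).

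The 11 lower members of the disease-associated list included 5 named by the smallest p. Galectin 3, Lgals3 (ENSMUSG00000050335, chromosome 14, 47367751 to 47386160), had 95.9 and 78.5 CPM in CD11c+ and 990 and 978 CPM in CD11c-, lower by -3.87 ± 0.18 (edgeR adjusted p = 3.62e-05). The actin-capping Capg, the oxidase subunit Cybb, the surface antigen Cd52 and the chemokine Ccl6 stood at -3.05, -2.68, -3.56 and -2.86, and Cybb is also in the granule list. Cathepsin D, Ctsd, the protease of the lysosome, had 14370 and 13710 CPM against 3704 and 3899 CPM and was higher by 1.5 ± 0.15 (edgeR adjusted p = 0.000596), with 0.29 on the homeostatic scale, which did not pass. In the list of axon tract microglia of the neonate 16 of 34 were higher and 10 lower (median 0.65, homeostatic scale -0.56). The phospholipase family member Pld3 had 364 and 358 CPM against 90.0 and 79.1 CPM and was higher on both scales (1.72 and 0.50). The fatty acid-binding Fabp5, the filament protein Vim and the lactate transporter Slc16a3 were lower on both, under TMM at -2.99, -2.71 and -2.63. The part of granulocyte and monocyte RNA in these decreases was not tested.

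**Figure D5:**
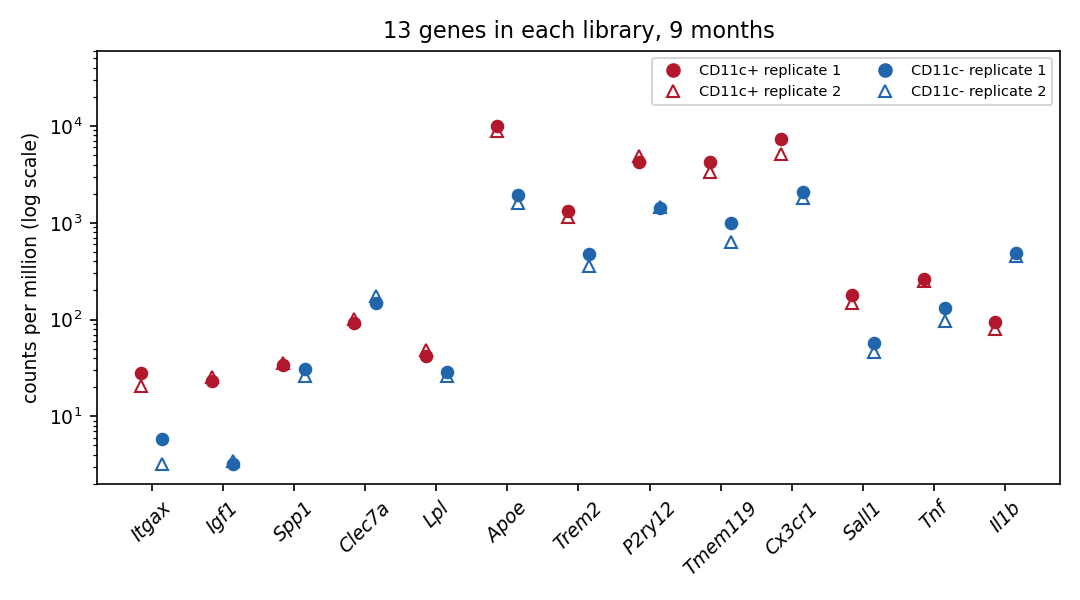
CPM (log scale) of 13 microglial and cytokine genes in each library, CD11c+ in red and CD11c- in blue. Apoe, Igf1, Tmem119 and Itgax stand furthest apart upward and Il1b downward, and the 4 points of Spp1 lie close together, between 26.2 and 35.6.

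Inflammatory cytokine genes split evenly, 11 higher, 11 lower and 11 not passed of 33 (median 0.51, homeostatic scale -0.70). Over all genes 14.8% were higher and 18.2% lower. Il1b had 93.2 and 79.5 CPM in CD11c+ and 483 and 454 CPM in CD11c-, lower by -2.82 ± 0.16 (edgeR adjusted p = 5.88e-05). It is in the mature neutrophil list as well. Tnf had 262 and 248 CPM against 133 and 95.8 CPM, higher by 0.79 ± 0.16 (edgeR adjusted p = 0.0107), and it stood at -0.42 on the homeostatic scale, where it did not pass. The interleukin 1 antagonist Il1rn and the chemokine Cxcl2 were lower on both scales (-4.79 and -1.64 under TMM), the chemokine Cxcl16 was higher by 1.47 under TMM only, and Ccl4, with 2517 and 3047 CPM against 2134 and 2694 CPM, overlapped between the groups.

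Genes of the endocytic and antigen-presenting machinery were mostly higher under TMM, with list medians close to 0 on the homeostatic scale. Of 42 lysosome genes 30 were higher and 2 lower (median 1.06, homeostatic scale -0.16, with none higher and 15 lower there). Of 19 genes of MHC class II and costimulation 14 were higher and none lower (median 1.04, homeostatic scale -0.17, with none higher and 4 lower there). Over all genes 55.8% were lower on that scale. Cathepsin B, Ctsb, had 6375 and 6103 CPM against 1834 and 1519 CPM, and the peptidase Tpp1 had 718 and 659 CPM against 198 and 158 CPM. The costimulatory Cd86 had 522 and 550 CPM against 150 and 148 CPM, and the class II chain H2-Ab1 had 2079 and 1904 CPM against 719 and 661 CPM. These 4 were higher under TMM by 1.52, 1.58, 1.47 and 1.16 with no overlap, and stood at 0.31, 0.36, 0.25 and -0.06 on the homeostatic scale, where none passed. H2 genes have close copies, and their reads may be shared.

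Phagocytic receptors went both ways per unit of homeostatic RNA. Of 28 tested 20 were higher and 5 lower, with a median of 1.09 (homeostatic scale -0.12), and on the homeostatic scale 9 were higher and 9 lower, beside 0.801% and 55.8% of all genes. The bridging protein Pros1 had 696 and 694 CPM against 156 and 148 CPM, and its receptor Mertk had 823 and 724 CPM against 199 and 178 CPM. The phosphatidylserine receptor Havcr2 had 422 and 408 CPM against 108 and 95 CPM. They were higher by 1.82, 1.66 and 1.66, and by 0.60, 0.44 and 0.45 on the homeostatic scale, all passing there (edgeR adjusted p = 0.00943, 0.0315 and 0.0298). The scavenger receptor Cd36 was higher by 2.08 and 0.87. The inhibitory receptor Cd300lf, which is in the eosinophil list too, and its relative Cd300ld were lower on both scales, under TMM at -4.12 and -2.29. The signalling chain Fcer1g, used by Fc receptors of most myeloid cells, had 1132 and 1422 CPM against 1691 and 2208 CPM and was lower by -1.0 ± 0.22 (edgeR adjusted p = 0.0132).

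Of 30 transcription factors of microglia 9 were higher and 4 lower (median 0.41, homeostatic scale -0.81). Over all genes 14.8% were higher and 18.2% lower. The ETS factor Etv5 had 255 and 236 CPM against 54.1 and 54.2 CPM and was the 1 member higher on both scales (1.80 and 0.59). Sall1, with 179 and 149 CPM against 57.3 and 46.2 CPM, and Mef2c, at 1.30 and 1.14, stood at 0.08 and -0.07 on the homeostatic scale. Egr1 differed between the CD11c+ replicates, with 2427 and 6129 CPM, and overlapped the CD11c- values of 3595 and 3174 CPM. Without CD11c+ replicate 2 Egr1 was lower (-0.81, edgeR adjusted p = 0.00256).

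Antiviral, peptide-loading and signalling lists held genes of both directions. Of 43 type I interferon response genes 7 were higher and 10 lower, shares near the 14.8% and 18.2% of all genes, with a median of -0.01 (homeostatic scale -1.22). The antiviral Ifitm3 had 181 and 209 CPM in CD11c+ and 936 and 1286 CPM in CD11c-, lower by -2.90 ± 0.24 (edgeR adjusted p = 0.00024), whereas the secreted Lgals3bp, with 378 and 410 CPM against 94.7 and 76.5 CPM, was higher on both scales (1.83 and 0.62). Of 23 genes of MHC class I and peptide loading 10 were higher and 3 lower (median 0.30, homeostatic scale -0.91), and the heavy chain H2-D1 was lower at -0.72. Of 25 growth factor genes 10 were higher and 4 lower (median 0.97, homeostatic scale -0.25), with progranulin, Grn, at 1.26 and neuregulin, Nrg1, at -4.18. Of 30 lipid handling genes 13 were higher and 6 lower (median 0.55, homeostatic scale -0.66), with the cholesterol exporter Abca1 at 1.48 and the acyl-CoA synthetase Acsl1 at -1.48. Of 22 TGF-beta pathway genes 7 were higher and 2 lower (median 0.37, homeostatic scale -0.84). The receptors Tgfbr1 and Tgfbr2, on whose signal homeostatic microglia depend, stood at 1.48 and 1.53, and thrombospondin, Thbs1, which platelets and monocytes make, at -4.38. Grn, Abca1, Tgfbr1 and Tgfbr2 stood between 0.05 and 0.32 on the homeostatic scale, where none passed. Of 36 immediate-early and heat-shock genes 14 were higher and 3 lower (median 0.40, homeostatic scale -0.81), and of 23 cholesterol synthesis genes 1 was higher and 5 lower (median -0.50, homeostatic scale -1.71).

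The subset difference was then set beside that at P5, where libraries carry the same subset labels. Age and library kit cannot be told apart, since the 9-month libraries alone are stated to be made with the SMART-Seq kit, so only the difference between ages of the fold change was tested for the 13 genes. Of 19555 genes in that fit 364 passed in either direction (1.86%), and none of the 13 did. Tmem119 had the largest difference. At P5 it had 95.1, 27.1 and 159 CPM in CD11c+ and 530, 250 and 277 CPM in CD11c-, the groups apart in the direction opposite to that at 9 months. Its fold change was -2.05 at P5 and 1.99 at 9 months in this fit, a difference of 4.04 ± 0.97 (edgeR adjusted p = 0.0722). At an unadjusted p under 0.05, the difference was positive for Tmem119, P2ry12, Sall1 and Trem2 (Trem2 at -0.06 on the homeostatic scale) and negative for Spp1, Clec7a and Il1b. The P5 CD11c+ replicate 2 held 2619610 counts and 23033 genes at 1 CPM or more, far from the other libraries. Mitochondrially encoded messengers took 7.15%, 20.6% and 28% of counts in the P5 CD11c- libraries against 2.38%, 0.771% and 2.79% in P5 CD11c+; their part in the difference between ages was not tested. Without P5 CD11c+ replicate 2, 7 of the 13 passed. A more positive fold change at 9 months was found for Tmem119 (3.57, edgeR adjusted p = 0.000923), P2ry12 (2.16), Sall1 (2.17), Cx3cr1 (1.97, but -1.58 with all 10 libraries on the homeostatic scale) and Trem2 (1.64). Spp1 (-2.25) and Clec7a (-1.74) had a more negative one. Scaled to the homeostatic list 5 passed, Tmem119 upward and Igf1, Spp1, Clec7a and Il1b downward. Members of that list themselves differed between ages, P2ry12 at -1.18 at P5 and 1.41 at 9 months and Sall1 at -1.23 and 1.42. These passes are therefore relative to a list that changed. On this scale Igf1 moved from 0.45 to -2.09 and Tmem119 from 4.04 to 1.97. With RLE factors Tmem119 alone passed at 3.88 (edgeR adjusted p = 0.0455). Without P5 CD11c+ replicate 3 Tmem119 alone passed at 4.71 (edgeR adjusted p = 0.0479).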

How the data were processed

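RNA-seq counts per gene were used from the 2 CD11c+ and 2 CD11c- libraries of 9-month-old mice, and from the 6 P5 libraries for the difference between ages. The authors deposited whole-number counts for 49315 genes; the submitters' processing notes name Trimmomatic 0.36, STAR 2.5.2b and Subread 1.5.2, and strand use was not given in the sources used here. Groups came from the sample titles. Counts were tested with edgeR 4.0.16 (R 4.3.3; filterByExpr, TMM, quasi-likelihood F-test, Benjamini-Hochberg adjusted p under 0.05 over all genes), and again with libraries scaled to the median of the homeostatic list. Within groups the replicates differed by more than sampling noise (chi-square per degree of freedom 37.5 and 57.3). On simulated data, 43.3% of 67 genes changed 2-fold and 97% of those changed 4-fold were recovered, with 16 false calls among 15127 genes. The genes named were the 13 followed across the study, from each list up to 6 called members with the smallest p and the most abundant, the 6 largest changes each way and the 20 largest higher on both scales (average log2 CPM of at least 3, no overlap), and the 10 largest decreases outside the granulocyte and other-cell lists (at least 5). The members and lists were chosen with earlier results of these data known. Alternatives were RLE factors, the macrophage reference scale, no filter, DESeq2 1.42.0, limma-voom (limma 3.58.1), a replicate block, a fit of all 10 libraries and leaving out each library. Promoter windows came from RefSeq on GRCm38.p6. Some results are not reported here.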

Additional observations from a re-analysis of the deposited data

How the results depend on the processing

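Of the 5202 genes called at 9 months, the count changed little with RLE factors, no filter, DESeq2 and limma-voom (5165 to 6153), and was 4006 to 6087 when 1 library was left out. It was 8910 on the homeostatic scale, 9183 on the macrophage reference scale and 1158 in the fit of all 10 libraries; the cause was not tested. The count of genes higher on both scales, 126, ranged from 49 to 452 when 1 library was left out and was 107 to 147 under the other alternatives run. Of the 13 genes none differed between ages, against 1 with RLE factors, 5 on the homeostatic scale and 0 to 7 when 1 library was left out. Groups of 2 leave the lone library of a group assumed to vary like the others, and 2-fold changes were often missed in simulated data. Same-numbered replicates correlated at 0.0781 across genes in their deviations (0.141 over genes whose mean log2 CPM was 3 or more), and the labels do not say that they pair; with a replicate block 5436 genes were called, 147 on both scales and 0 of the 13 between ages.

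These named fold changes changed sign on the homeostatic scale: C1qb -0.015, Calr -0.59, Clec9a -0.19, Cst3 -0.48, Ctss -0.17, Flt3 -0.24, H2-Ab1 -0.063, Irf8 -0.10, Khdrbs3 -0.53, Lpl -0.87, Mef2c -0.073, Rapgef5 -1.09, Siglecf -0.19, Smad3 -0.77, Tnf -0.42, Trem2 -0.020 and Xcr1 -0.48. On the macrophage reference scale they were, in the same order, -0.070, -0.65, -0.26, -0.54, -0.23, -0.29, -0.12, -0.14, -0.58, -0.93, -0.12, -1.15, -0.24, -0.83, -0.47, -0.069 and -0.54, with Grn at -0.0026 and Blnk at -0.00021. These scales move all genes by construction. Differences between ages that changed sign on the homeostatic scale were Apoe -1.33, Cx3cr1 -1.58, Igf1 -2.09, Itgax -1.47, Tnf -1.92 and Trem2 -0.058, and that of Lpl ranged from -1.04 to 0.16 with 1 library left out (0.16 without P5 CD11c+ replicate 2). Fold changes near 0 also changed sign: Egr1 was 0.10 and Spp1 0.039 in the fit of all 10 libraries, Egr1 0.024 without the filter, and with 1 library left out Egr1 ranged from -0.81 to 0.52, Rapgef5 from -0.22 to 0.47, Ccl4 up to 0.16 and mt-Co1 from -0.66 to 0.30. In the fit of all 10 libraries 64 of the named genes no longer passed (Abca1, Aoah, C1qb, C3ar1, C4a, Calr, Ccl17, Ccl22, Ccl8, Ccr7, Cd209a, Cd209d, Cd300e, Cd300ld, Cd36, Cd3d, Cd4, Cd86, Clec7a, Csf1r, Cst3, Ctsb, Ctsd, Ctss, Cx3cr1, Cxcl2, Cybb, Cyp11a1, F13a1, Fcer1g, Fcrls, Flt3, Gapdh, Golm1, Grn, H2-Ab1, H2-D1, Havcr2, Ifitm3, Il1b, Irf8, Itgax, Kdr, Ldha, Lgals3bp, Mgl2, Ms4a6c, Nrg1, P2ry12, Pcdhgb2, Pkm, Pld3, Prom1, Pros1, Sall1, Siglecf, Slco2b1, Tgfbr1, Tgfbr2, Tmem119, Tnf, Tpp1, Trem2 and Wfdc17), with fold changes in the same direction (Itgax 2.22 against 2.08), and 106 kept their direction and their side of the threshold.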

Other observations

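Markers of cells other than microglia and granulocytes were measured in the same 4 libraries. Choroid plexus and ependymal genes were lower in CD11c+, 6 of 11 with none higher (median -2.04, homeostatic scale -3.24). Transthyretin, Ttr, the carrier protein that choroid plexus secretes, had 24.9 and 25.1 CPM in CD11c+ and 187 and 174 CPM in CD11c-, with no overlap. T cell and natural killer cell genes gave 4 higher and 3 lower of 21 (median 0.42, homeostatic scale -0.79), shares near the 14.8% and 18.2% of all genes. The T cell receptor chain Cd3d had 0.432 and 0.128 CPM against 6.25 and 8.27 CPM, and the cytotoxic granule gene Nkg7 had 5.81 and 2.91 CPM against 79.4 and 92.3 CPM. Nkg7 is in the primary granule list as well. Cd4, which some macrophages also express, went the other way, with 8.48 and 7.95 CPM against 1.53 and 0.588 CPM. B cell genes gave 6 higher and 5 lower of 16 (median 0.12, homeostatic scale -1.09), with the antibody light chain Igkc at 14.4 and 9.14 CPM against 105 and 108 CPM and the adaptor Blnk at 352 and 338 CPM against 126 and 96.5 CPM. The progenitor genes Myb and Prom1, from a list of 20 with 5 higher and 7 lower (median -0.21, homeostatic scale -1.42), were lower at -5.93 and -6.53 (edgeR adjusted p = 5.92e-05 and 9.71e-05). Cd34 of the same list had 387 and 376 CPM against 98.3 and 81.4 CPM and was higher on both scales (1.71 and 0.50). Ttr, Cd3d, Nkg7, Igkc, Myb and Prom1 were lower on the homeostatic scale too, and Cd4 and Blnk did not pass there.

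The counts that follow stand beside 14.8% higher and 18.2% lower over all genes. Erythroid genes gave 4 higher and 5 lower of 17 (median -0.16, homeostatic scale -1.37), and megakaryocyte and platelet genes 3 higher and 5 lower of 14 (median -0.29, homeostatic scale -1.51). Neuronal genes gave 1 higher and 1 lower of 9, astrocyte genes 1 higher and none lower of 15, oligodendrocyte genes 3 higher and 3 lower of 10, and vascular genes 4 higher and 3 lower of 12 (medians 0.58, 0.41, 0.26 and 0.48, on the homeostatic scale -0.62, -0.79, -0.96 and -0.73). The smooth muscle actin Acta2 had 0.51 and 0.684 CPM in CD11c+ against 25.8 and 25.1 CPM in CD11c-, while the endothelial receptor Kdr had 8.87 and 8.21 CPM against 2.36 and 1.9 CPM, so members of the vascular list lay apart in both directions. Kdr did not pass without CD11c+ replicate 1 (edgeR adjusted p = 0.0542).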
